A study of Homo sapiens with 6 samples.

Results

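Ribosome biogenesis genes were examined in HCT116 cells, an established human colon cancer line. They are 30 nucleolar and rRNA processing genes, chosen by name from a list in which many genes are described as driven by MYC. Each of the 30 symbols matched 1 of the 60675 gene IDs of the table, and all 30 were among the 13261 genes tested (those that reached an FPKM of 1 in 3 or more libraries). The series compared cells with stable expression of wild-type PHF5A (WT, 3 libraries) with cells that stably expressed PHF5A K29Q, in which glutamine replaces a lysine (K29Q, 3 libraries). PHF5A is a subunit of the SF3B complex of the spliceosome, and the title of the series concerns its acetylation, stress responses and splicing of KDM3A. Both groups thus express introduced PHF5A, the state of the endogenous gene is not given in the labels, and an untransfected control is not among the samples used here. No treatment or time point is given. Nothing in the labels says whether the libraries of a group are separate cultures or clones, so each p-value reflects the variation among these 6 libraries and that variation may be technical. In such bulk RNA, fewer cells of a type and less RNA per cell cannot be told apart.

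A ribosome starts as a long precursor rRNA that RNA polymerase I transcribes in the nucleolus. Small nucleolar ribonucleoproteins (snoRNPs) guide methylation, pseudouridylation and cleavage of the precursor, and separate sets of assembly factors then turn the pieces into the 40S and 60S subunits. The transcription factor MYC is known to raise many genes of this pathway, and colon cancer cells generally express them strongly.

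Expression was given as FPKM, a fragment count scaled by transcript length and library depth. Depth per library is not stated. Single-exon genes of more than 600 nt had values in small steps, which put the depth between 34.0 and 40.3 M fragments if 1 step was 1 fragment. PHF5A itself had an FPKM of 33.1 ± 1.06 in WT against 44.1 ± 2.38 in K29Q (SD, 3 libraries each; limma, adjusted p = 0.11). It was higher in all 3 K29Q libraries, and it passed after correction for GC content and length (limma, adjusted p = 0.0201). It did not pass with a flow cell term added to that correction (limma, adjusted p = 0.0805) or with a flow cell term alone (limma, adjusted p = 0.279). Gene totals do not separate an introduced from an endogenous copy. Of 10 epithelial colon markers, 6 reached an FPKM of 1 in at least 3 libraries (EPCAM, KRT8, KRT18, KRT19, CDH1 and CDX2), while CDH17, LGALS4, VIL1 and CDX1 did not. The summed FPKM of the 10 markers was 1247 to 1399.7 in WT and 1146 to 1200.2 in K29Q, without overlap, led by KRT19. Of 12 fibroblast, endothelial and leukocyte markers only COL1A1 reached that level, DCN and LUM were listed at 0 in all 6 libraries, and the 12 summed to 4.90 to 5.86 in WT and 5.03 to 6.53 in K29Q. Whether the keratin difference has any part in the values below was not tested.

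The 30 genes were expressed at high levels and spanned a wide range. NPM1, which codes for the histone chaperone and pre-ribosome export protein nucleophosmin, was the most abundant, with a mean FPKM of 219 over the 6 libraries, at percentile 99.1 of the genes tested. NCL, the rRNA-binding protein nucleolin, followed at 103, then BOP1 at 77.9 and the rRNA methyltransferase FBL at 52.6. At the low end stood UTP20 at 3.08, WDR12 at 5.19 and POLR1B at 5.30. The mean FPKM lay above the median of the tested genes (5.20) for 28 of the 30, and the median of the 30 was 22.2. The spread across the 6 libraries, as a coefficient of variation, ran from 2.17% for POLR1A to 21.5% for POLR1B, with a median of 7.52% against 10.4% for all genes tested.

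**Figure D1:**
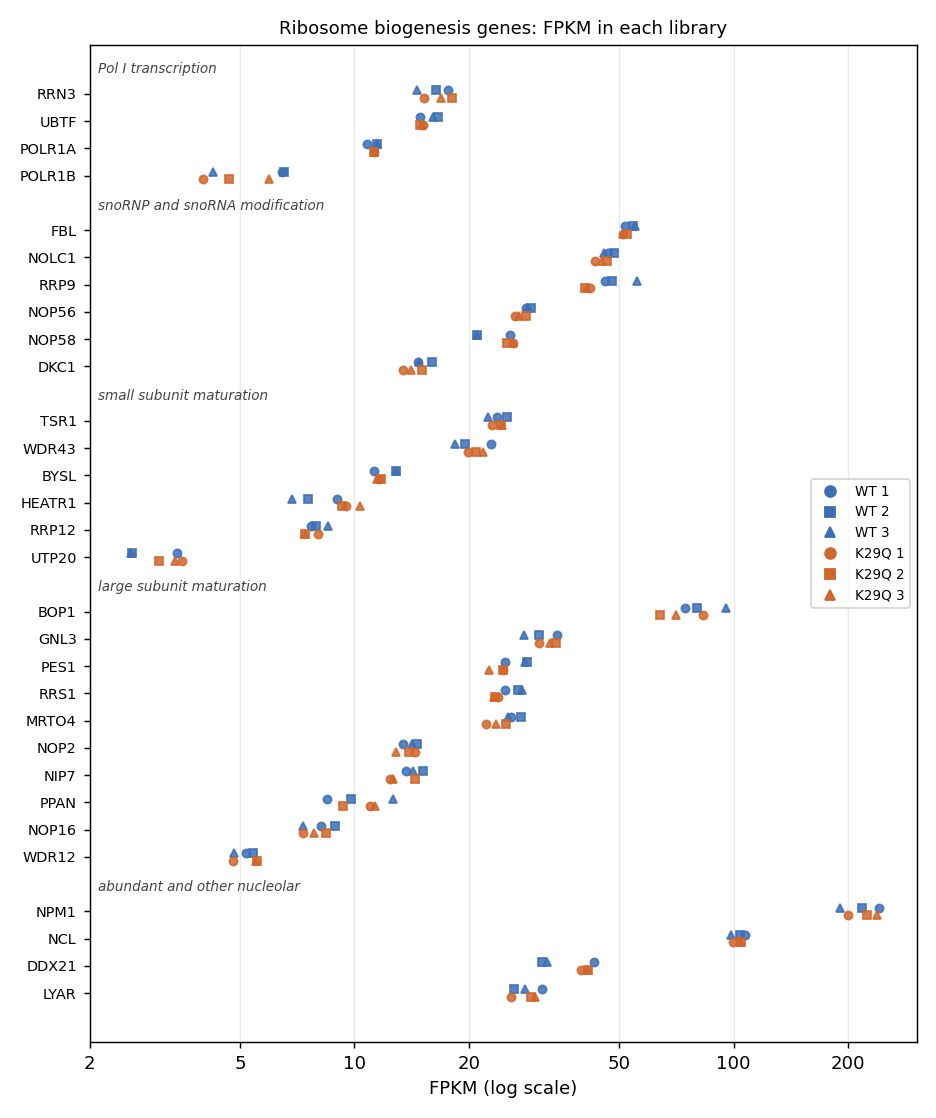
FPKM of the 30 genes (horizontal axis, log scale) in each of the 3 WT (blue) and 3 K29Q (orange) libraries, with genes grouped by role and ordered by mean level. The values of both groups lie close together for most genes and do not overlap for 6, of which RRP9 shows the widest gap among those lower in K29Q.

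None of the 30 genes differed between K29Q and WT past the threshold of the test over all genes. The count was 0 of 30 at an adjusted p under 0.05 (limma, Benjamini-Hochberg over 13261 genes), where 7 genes (0.0528%) passed in all. At an unadjusted p under 0.05 there were 3 members, RRS1 and RRP9 lower and HEATR1 higher in K29Q, or 10% of the list, against 12.5% of all genes tested. By direction, 7.65% of all genes were higher and 4.89% lower at that p. Ratios of mean FPKM, K29Q over WT, ran from 0.827 for RRP9 to 1.25 for HEATR1, and 20 of the 30 lay between 0.9 and 1.1. Fitted log2 fold changes of FPKM + 1 were below 0 for 18 members and above 0 for 12. Their median was −0.038, against 0.0030 over all genes.

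The values of the groups did not overlap for 6 members. HEATR1 was higher in all 3 K29Q libraries, and RRP9, RRS1, PES1, MRTO4 and NOP56 were lower in all 3. This is 20% of the list against 17.8% of all genes tested, of which 8.8% were higher and 9.0% lower. For 29 of the 30 genes the 95% confidence interval of the log2 fold change of FPKM + 1 lay inside 1.5-fold in either direction. The same held for 11780 of the 13261 genes tested. This scale understates changes of low genes, so the bound is not one on FPKM itself. Among the 30 genes POLR1B was the exception, with an interval from −0.61 to 0.22. Missing the threshold does not show that the levels were equal, and the median half-width of these intervals was 0.18 on the log2 scale.

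**Figure D2:**
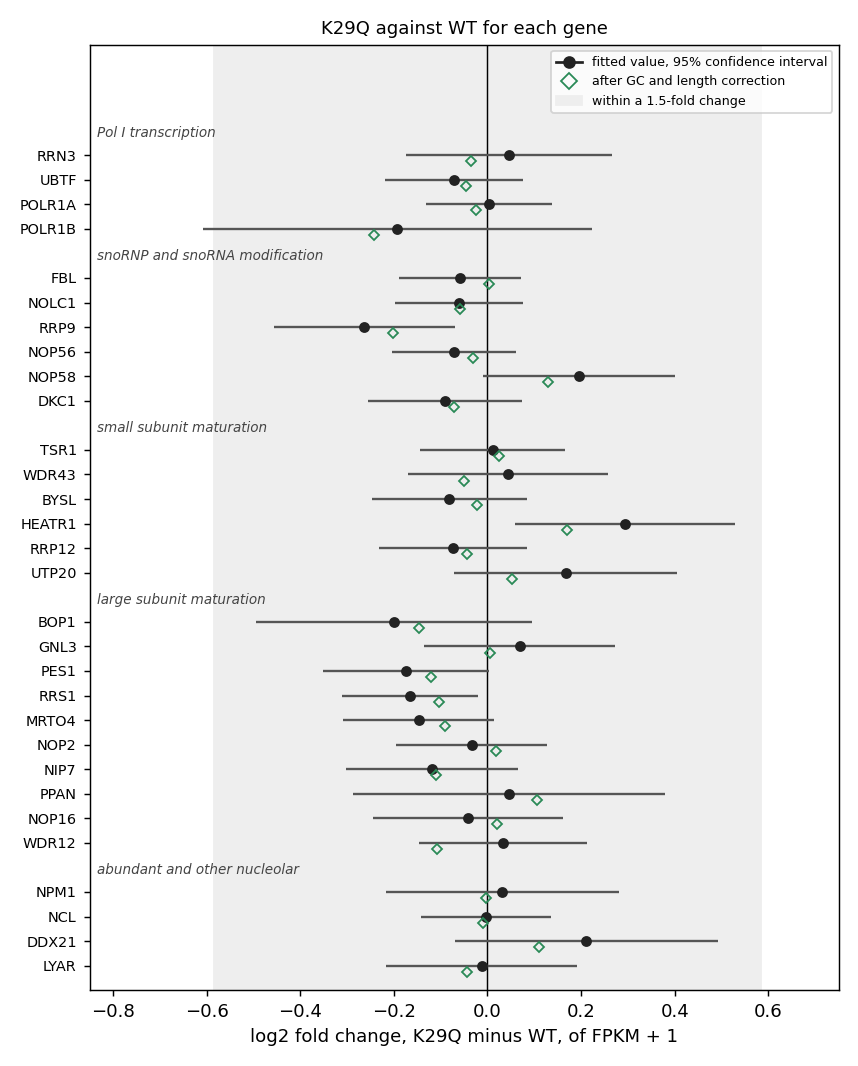
Log2 fold change of FPKM + 1, K29Q minus WT, for each gene by role (filled points), with its 95% confidence interval from limma (bars) and the value after correction for GC content and length (open diamonds). The grey band marks changes smaller than 1.5-fold, and the interval of POLR1B alone reaches outside it.

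The polymerase I group held POLR1A and POLR1B, the large catalytic subunits, UBTF, which binds rDNA repeats, and RRN3, which brings the polymerase to the rDNA promoter. None of the 4 reached an unadjusted p of 0.05. RRN3, the most abundant, had an FPKM of 17.6, 16.4 and 14.6 in WT 1 to 3 and 15.2, 18.1 and 16.9 in K29Q 1 to 3, so the groups overlapped (log2 fold change 0.046, SE 0.093, 95% confidence interval −0.17 to 0.27, limma, adjusted p = 0.858). POLR1A was the steadiest of all 30 genes, at 11.2 ± 0.385 FPKM in WT against 11.3 ± 0.0222 in K29Q (SD, 3 libraries each). UBTF had 15.9 ± 0.880 and 15.0 ± 0.150. POLR1B varied most, with 6.45, 6.52 and 4.24 in WT and 3.99, 4.66 and 5.96 in K29Q. The low value of WT 3 and the high value of K29Q 3 crossed between the groups, and the flow cells, taken from run names in the table header, differed in direction (log2 difference −0.50 in A, 0.15 in B).

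Of the 6 snoRNP genes, 5 lay below 0 and NOP58 above. RRP9, the protein specific to the U3 snoRNP that directs early cleavages of the precursor, had an FPKM of 45.7, 47.9 and 55.7 in WT 1 to 3 and 41.8, 40.6 and 41.0 in K29Q 1 to 3. All K29Q values lay below all WT values, and the WT values were spread more widely. K29Q minus WT came to −0.26 on the log2 scale (SE 0.082, interval −0.46 to −0.070), with the smallest p of the 30 genes, and it did not pass over all genes (limma, adjusted p = 0.356). In flow cells A and B separately the difference was −0.21 and −0.29. Since the groups did not overlap, the sign within each flow cell was fixed in advance. Flow cell A holds WT 2 as its only WT library, and B holds K29Q 3 as its only K29Q library. The gene (ENSG00000114767) spans 51933430 to 51941941 on the minus strand of chromosome 3 (GRCh38).

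The box C/D core proteins did not share a direction. FBL, the methyltransferase, had 51.7, 54.3 and 55.1 in WT and 51.2, 52.4 and 50.9 in K29Q, overlapping by K29Q 2 alone (log2 fold change −0.058, SE 0.055, interval −0.19 to 0.072, limma, adjusted p = 0.669). Its partner NOP56 had 28.7 ± 0.415 and 27.3 ± 0.904 (SD, n = 3 each), without overlap and with a log2 fold change of −0.07 (limma, adjusted p = 0.606). NOP58, the other scaffold of the same particle, had 25.6, 21.1 and 21.0 in WT and 26.2, 25.3 and 26.2 in K29Q. WT 1 lay among the K29Q values, and the log2 fold change of 0.20 (SE 0.087, interval −0.010 to 0.40) did not pass (limma, adjusted p = 0.414). DKC1, the pseudouridine synthase of the box H/ACA particles, had 15.2 ± 0.752 and 14.2 ± 0.843, and the snoRNP chaperone NOLC1 had 46.8 ± 1.34 and 44.9 ± 1.63.

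Among the 6 factors of the small subunit, 4 lay above 0 and 2 below. HEATR1, a large early component of the processome that assembles on the precursor and a factor in rDNA transcription, had an FPKM of 8.97, 7.55 and 6.84 in WT 1 to 3 and 9.52, 9.29 and 10.4 in K29Q 1 to 3. The groups did not overlap, and WT 1 was the WT library nearest to K29Q. The log2 fold change of 0.29 (SE 0.099, interval 0.059 to 0.53) did not pass over all genes (limma, adjusted p = 0.368). Within flow cells A and B it was 0.28 and 0.36, with the sign fixed in advance by the lack of overlap. A single WT library lies in A and a single K29Q library in B. Exons of HEATR1 overlap LGALS8 on the opposite strand, which had a mean FPKM of 3.12 in WT and 3.61 in K29Q, and without a stated strand option their reads cannot be told apart. The gene (ENSG00000119285) spans 236549005 to 236604504 on the minus strand of chromosome 1.

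UTP20, which acts late in the same processome, had 3.40, 2.58 and 2.57 in WT and 3.51, 3.06 and 3.36 in K29Q (log2 fold change 0.17, SE 0.101, limma, adjusted p = 0.518). Again WT 1 lay inside the K29Q range while WT 2 and 3 lay below it. TSR1, a late 40S factor and the most abundant of this group, had 23.8, 25.2 and 22.4 in WT and 23.1, 24.3 and 24.5 in K29Q (log2 fold change 0.011, SE 0.065, interval −0.14 to 0.17, limma, adjusted p = 0.956). The other 3 overlapped between the groups as well. WDR43 had 20.3 ± 2.37 and 20.9 ± 0.958, BYSL 12.3 ± 0.933 and 11.6 ± 0.145, and RRP12, an export factor of the pre-40S particle, 8.05 ± 0.435 and 7.60 ± 0.359 (SD, n = 3 each).

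The 10 factors of the large subunit had 7 members below 0 and 3 above, and their median log2 fold change was −0.080. RRS1, which helps to bring the 5S RNP into the pre-60S particle, had an FPKM of 24.96, 27.0 and 27.7 in WT and 23.8, 23.5 and 23.3 in K29Q. All K29Q values lay below all WT values. Its log2 fold change was −0.17 (SE 0.062, interval −0.31 to −0.019, limma, adjusted p = 0.388). MRTO4, a placeholder for a stalk protein of the 60S subunit, had 25.9, 27.5 and 25.4 in WT and 22.2, 25.1 and 23.6 in K29Q (log2 fold change −0.15, SE 0.068, adjusted p = 0.426), also without overlap. NIP7, a factor of precursor rRNA maturation grouped here with the large subunit, had 13.7, 15.1 and 14.3 in WT and 12.4, 14.5 and 12.6 in K29Q. K29Q 2 lay inside the WT range (log2 fold change −0.12, SE 0.078, limma, adjusted p = 0.552). Exons of MRTO4 and NIP7 overlap EMC1 and COG8 on the opposite strand. EMC1 had a mean FPKM of 12.3 in WT and 11.4 in K29Q, also without overlap between the groups. COG8 had 8.03 and 7.30, with overlap. Of the 30 genes, 11 share exonic positions with another gene that is not a snoRNA gene, so part of their reads could belong to either. A further 3 (DKC1, NOP56 and NOP58) overlap annotated snoRNA genes only.

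PES1, BOP1 and WDR12 form the PeBoW complex and their mRNA levels differed widely. PES1 had 24.9, 28.6 and 28.1 in WT and 24.6, 24.6 and 22.7 in K29Q, with WT 1 just above the K29Q values (log2 fold change −0.17, SE 0.075, limma, adjusted p = 0.403). BOP1 had 74.5, 80.2 and 95.4 in WT and 83.1, 63.9 and 70.5 in K29Q, and K29Q 1 lay above 2 of the WT libraries (log2 fold change −0.20, SE 0.124, adjusted p = 0.528). WDR12 had 5.12 ± 0.292 and 5.27 ± 0.415 (SD, n = 3 each). The mean of BOP1 was thus 77.9 FPKM against 25.6 for PES1 and 5.19 for WDR12, a difference between genes on a scale that divides by length.

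The remaining large subunit factors differed little. The nucleolar GTPase GNL3, also called nucleostemin, had 31.0 ± 3.14 FPKM in WT against 32.4 ± 1.67 in K29Q, the rRNA cytosine methyltransferase NOP2 14.1 ± 0.636 and 13.7 ± 0.795, and NOP16 8.13 ± 0.781 and 7.85 ± 0.550 (SD, n = 3 each). Exons of NOP16 overlap the far more abundant HIGD2A on the opposite strand, at a mean FPKM of 92.1 in WT and 88.9 in K29Q. Without a stated strand option, part of the NOP16 reads could belong to HIGD2A. PPAN shares exons with a read-through entry, PPAN-P2RY11, to which reads of the same locus were assigned. PPAN had 8.44, 9.80 and 12.6 in WT and 11.01, 9.35 and 11.3 in K29Q, and the read-through had 11.5, 6.15 and 7.65 in WT and 6.34, 11.3 and 5.38 in K29Q. The 2 entries are uncertain singly. Their sum was 18.7 ± 2.39 in WT and 18.2 ± 2.13 in K29Q.

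NPM1, NCL, DDX21 and LYAR act in the nucleolus beyond a single subunit. NPM1 had an FPKM of 241.9, 218.5 and 190.4 in WT and 200.4, 224.7 and 238.7 in K29Q, and both the highest and the lowest value were WT libraries (log2 fold change 0.032, SE 0.105, interval −0.22 to 0.28, limma, adjusted p = 0.920). The 45 NPM1 pseudogene entries summed to between 6.72 and 8.11 FPKM per library, so part of the NPM1 reads may be assigned there. NCL had 107, 104 and 98.3 in WT and 99.9, 105 and 104 in K29Q (log2 fold change −0.0029, SE 0.059, interval −0.14 to 0.14, limma, adjusted p = 0.988). DDX21, an RNA helicase that links polymerase I transcription with rRNA processing, had 42.8, 31.2 and 32.2 in WT and 39.6, 41.2 and 41.3 in K29Q. WT 1 was the highest of the 6 libraries and the other WT libraries the lowest, and the log2 fold change was 0.21 (SE 0.119, limma, adjusted p = 0.495). LYAR had 28.6 ± 2.40 and 28.3 ± 2.16 (SD, n = 3 each).

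The WT 1 library stood nearer to K29Q than to WT 2 and 3 for many of these genes. On the log2 scale this held for 23 of the 30 (76.7%), against 60.5% of 13060 genes tested without WT 1. With WT 1 left out, 0 of the 30 passed over all genes, and the smallest adjusted p-values were those of DDX21 (0.066), HEATR1 (0.0743) and NOP58 (0.0747) (limma). At an unadjusted p under 0.05, 7 members were then found. DDX21, HEATR1, NOP58 and UTP20 were higher and RRP9, RRS1 and PES1 lower, which is 23.3% of the list against 20.7% of all genes. The log2 fold change without WT 1 was 0.35 for DDX21, 0.39 for HEATR1, 0.29 for NOP58 and −0.32 for RRP9. For each of these genes WT 1 was the WT library nearest to K29Q, so leaving it out had to widen the difference. Without WT 2 the values, in the same order, were 0.13, 0.28, 0.15 and −0.29. Without WT 3 they were 0.15, 0.22, 0.15 and −0.18.

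The small differences were related to the GC content of the transcripts, which the choice of the genes had not used. The 10 genes with the lowest GC content of the longest transcript (40.2% to 43.4%) included HEATR1, DDX21, NOP58, UTP20 and NPM1, and 9 of them lay above 0 (median log2 fold change 0.057). The 10 with the highest (54.3% to 65.2%) included RRP9, BOP1, PES1 and RRS1, and 9 of them lay below 0 (median −0.077). The 10 between them (44.8% to 54.1%) were nearly as low, with 8 below 0 and a median of −0.066. All tested genes in the same GC ranges had medians of 0.074 (1648 genes, lowest), −0.013 (4071 genes, middle) and −0.050 (4055 genes, highest). Across the 30 genes the Pearson correlation of GC content with the log2 fold change was −0.66, and it was −0.36 across 13108 tested genes. These are descriptions across genes that share the same 6 libraries.

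**Figure D3:**
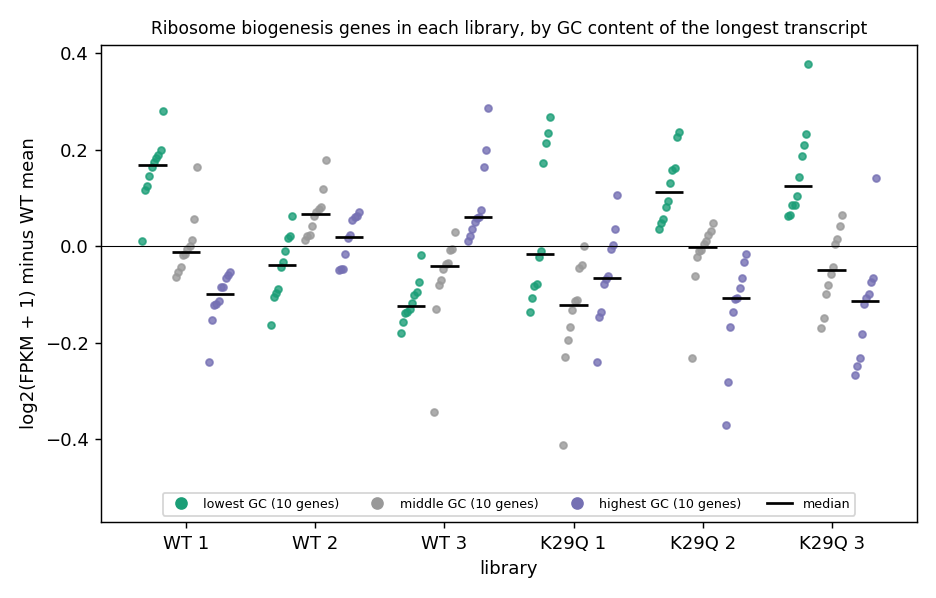
Each gene's log2(FPKM + 1) minus its WT mean (vertical axis) in the 6 libraries (horizontal axis), coloured by GC content, with 10 genes in each class and black bars for medians. The class with the lowest GC content has a median of 0.169 in WT 1 and −0.124 in WT 3, with the K29Q medians between −0.017 and 0.124.

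The GC pattern also differed between libraries of 1 group. Relative to the WT mean, the median of the class of lowest GC content was 0.169 in WT 1, −0.038 in WT 2 and −0.124 in WT 3, and −0.017, 0.112 and 0.124 in K29Q 1 to 3. For the class of highest GC content the medians were −0.099, 0.020 and 0.060 in WT and −0.065, −0.108 and −0.113 in K29Q. WT 1 therefore resembled K29Q 2 and 3 in both classes, and K29Q 1 did not share the pattern of the other K29Q libraries in the class of lowest GC content.

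After a trend against GC content and transcript length was fitted over all genes and subtracted in every library, the medians of the lowest and highest class became 0.00059 and −0.045, and 5 and 3 of the 10 genes lay above 0. The middle class then had a median of −0.045, with 2 of 10 above 0. The median of all 30 genes changed little, from −0.038 to −0.033. By role it went from −0.080 to −0.096 for the large subunit and from −0.034 to −0.041 for polymerase I. It went from −0.066 to −0.045 for the snoRNP genes, from 0.027 to 0.0012 for the small subunit and from 0.014 to −0.0061 for the other nucleolar genes. The log2 fold change became 0.17 for HEATR1, 0.11 for DDX21, 0.13 for NOP58, 0.052 for UTP20, −0.20 for RRP9, −0.12 for PES1 and −0.10 for RRS1, smaller in size than before for each of these 7. Other members moved either way, BOP1 and MRTO4 toward 0 and POLR1B and PPAN farther from it. WDR12 changed sign, from 0.033 to −0.11. POLR1A, RRN3, NPM1 and WDR43 also turned from above 0 to below it, and FBL, NOP2 and NOP16 from below to above. The adjusted p (limma) fell for RRP9 (0.356 to 0.166), HEATR1 (0.368 to 0.252), RRS1 (0.388 to 0.278), PES1 (0.403 to 0.368) and NOP58 (0.414 to 0.377). It rose for DDX21 (0.495 to 0.533) and UTP20 (0.518 to 0.725). Of the 30 genes 0 passed over all genes in that fit, with RRP9 at the smallest adjusted p of 0.166 (limma).

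**Figure D4:**
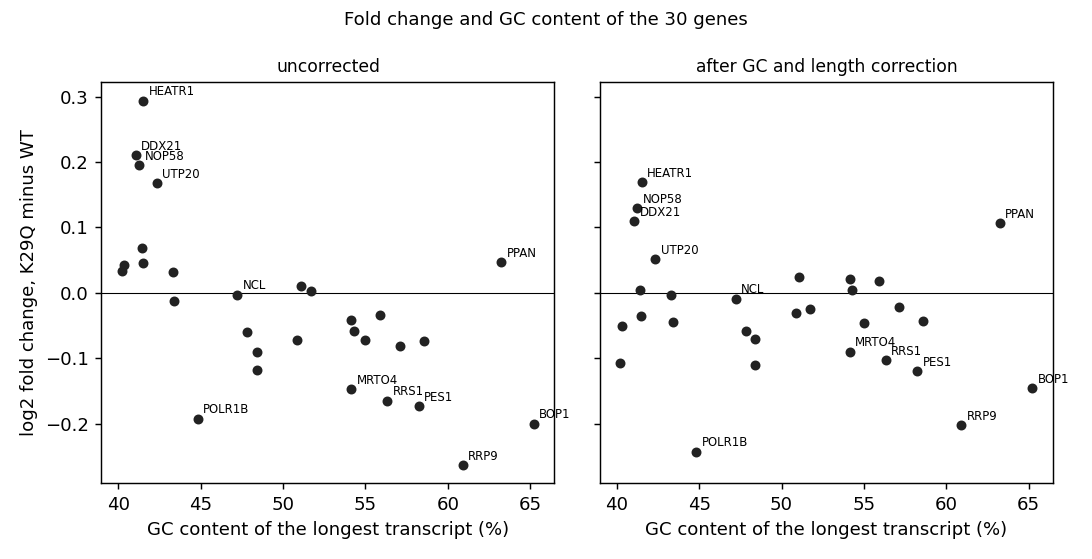
Log2 fold change, K29Q minus WT (vertical axis), against the GC content of the longest transcript in percent (horizontal axis) for the 30 genes, uncorrected on the left and after correction for GC content and length on the right. On the left HEATR1, DDX21 and NOP58 stand highest at low GC content and RRP9 and BOP1 lowest at high GC content. On the right these 5 lie closer to 0. POLR1B and PPAN lie farther from it there, as does WDR12, which crosses from above 0 to below it.

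Other genes of the pathway gave the same count of 0 past the threshold in every list. Of 12 further polymerase I subunits and factors, 0 passed and 0 had an unadjusted p under 0.05 (median log2 fold change 0.058). Of 13 further snoRNP proteins and assembly factors, 0 passed and 1 (7.69%) had an unadjusted p under 0.05, against 12.5% of all genes tested. This was RUVBL2, an ATPase of the assembly machinery, at 70.4 ± 5.76 FPKM in WT against 59.6 ± 3.05 in K29Q (SD, 3 libraries each). Of 40 further small subunit factors, 0 passed and 2 (5%) had an unadjusted p under 0.05. These were KRR1, at 6.49 ± 1.23 and 9.05 ± 0.497, and NOL6, at 7.47 and 6.26. Of 49 further 60S factors, 0 passed and 5 (10.2%) had an unadjusted p under 0.05, 3 higher and 2 lower. EIF6, which keeps the subunits apart, had 107 ± 6.19 and 91.5 ± 2.43. The medians of these last 3 lists were −0.062, 0.0082 and −0.038.

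Genes around the pathway showed no call either. Of 18 genes of the RNA exosome and of rRNA trimming, 0 passed, and 5 (27.8%) had an unadjusted p under 0.05, 2 higher and 3 lower in K29Q, against 12.5% of all genes. ERI1, an exonuclease that trims the 5.8S rRNA end, had 5.37 ± 0.899 and 3.79 ± 0.250 FPKM, and the exosome nuclease DIS3 had 5.43 ± 0.830 and 7.14 ± 0.195. Of 11 measured genes of the MYC network, 0 passed and 3 (27.3%) had an unadjusted p under 0.05, MYC higher and MXD3 and MLX lower. MYC had 0.952, 1.35 and 1.47 FPKM in WT and 1.86, 1.62 and 1.76 in K29Q, without overlap (log2 fold change 0.29, limma, adjusted p = 0.379). These levels are low for a gene known to be strongly expressed in colon cancer cells, and how its reads were assigned could not be checked. MXD3 and MLX, a MAX-binding repressor and a MAX-like partner protein, had log2 fold changes of −0.20 and −0.31 (limma, adjusted p = 0.388 for both). Of 8 genes of the 5S RNP and of p53 surveillance, which senses faulty ribosome assembly, 0 passed. The p53 target CDKN1A had 121 ± 5.52 and 106 ± 4.15 (log2 fold change −0.19, adjusted p = 0.365).

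Genes of small nucleolar RNAs also lie within the span of several members. Annotated exons of NOP56, DKC1, NOP58 and GNL3 overlap such genes, and whether the others lie in introns was not tested. Of the 30 genes, 8 (26.7%) contained an annotated snoRNA gene on the same strand, 27 snoRNA entries in all, against 2.35% of all genes tested (GENCODE 29). The hosts were NOP56 with 5 entries, NOP58 with 4, GNL3 with 6, NCL and WDR43 with 3 each, and DKC1, PPAN and TSR1 with 2 each. The snoRNAs themselves were not analysed here.

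Promoter sequence was compared because the list is described as MYC-driven, and the E-box CACGTG is the motif that MYC and its partner MAX bind. RefSeq promoter sequences (GRCh38.p14, from 250 bases before to 50 after the start) were matched by symbol for 25 of the 30 genes, and RRS1, BOP1, NOP58, NOLC1 and RRP12 had no entry used here. CACGTG reads the same on both strands. It occurred once in 8 of the 25 (32%), against 7.26% of 35116 promoters and 10.4% of the 8835 tested genes matched by symbol. The 8 windows are shown 5′ to 3′ on the gene's strand because they place the motif in each gene, with CACGTG in capitals and up to 12 bases on each side.
PES1: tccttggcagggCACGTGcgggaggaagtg
MRTO4: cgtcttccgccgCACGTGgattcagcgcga
NOP2: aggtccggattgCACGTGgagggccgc
UTP20: cttttttccgtcCACGTGacccactcaggc
BYSL: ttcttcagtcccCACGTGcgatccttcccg
WDR43: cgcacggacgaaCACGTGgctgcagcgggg
RRP9: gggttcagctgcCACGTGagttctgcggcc
FBL: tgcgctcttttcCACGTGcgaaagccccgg

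The windows lie at chr22:30591880-30591909 (PES1, minus strand), chr1:19251807-19251836 (MRTO4, plus), chr12:6568242-6568268 (NOP2, minus) and chr12:101280083-101280112 (UTP20, plus). Those of the other 4 are at chr6:41921515-41921544 (BYSL, plus), chr2:28894658-28894687 (WDR43, plus), chr3:51941892-51941921 (RRP9, minus) and chr19:39846356-39846385 (FBL, minus). All 8 motifs were close to the transcription start. The first base of the motif lay 10 bases before it in UTP20 and 5 before it in RRP9, and at position 4 in WDR43, 7 in FBL, 14 in PES1, 15 in MRTO4, 29 in BYSL and 36 in NOP2, counted from 1 at the first transcribed base. Of these 8 genes 2 lay above 0 and 6 below (median log2 fold change −0.070), and of the 17 others 9 lay above 0 and 8 below (median 0.0032). The groups also differed in GC content, with a median of 55.1% for the 8 and 47.2% for the 17. After correction for GC content and length 3 of the 8 lay above 0 (median −0.036) and 6 of the 17 (median −0.024). Among all tested genes matched, those with and without the motif had medians of 0.0034 and 0.0045. A match of letters does not show that a factor binds there.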

How the data were processed

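Total RNA of 6 HCT116 libraries was sequenced. The authors deposited 1 table of FPKM values for genes by libraries (unit per the file headers). The submitters' processing notes name HISAT2 2.1.0, StringTie and GRCh38. The StringTie version, annotation and stranding were not given in the sources used here. No columns of other samples were used (0 present). Flow cells A (WT 2, K29Q 1 and 2) and B (WT 1, WT 3, K29Q 3) were read from sequencing run names in the headers. Genes that reached an FPKM of 1 in 3 or more libraries were fitted as log2(FPKM + 1) with limma 3.58.1 (R 4.3.3, intensity trend), group as the only term, Benjamini-Hochberg adjustment over 13261 genes, threshold 0.05. Fold changes on this scale understate changes of low genes. FPKM holds no counts, so no count test was run. GENCODE 29 gave positions, GC content and length, for 57055 of 60675 IDs. The fit was run on simulated data with planted changes larger than any of the members showed, and without GC or flow cell effects. That run does not bear on changes of the size seen here. The members and lists were chosen with earlier results of these data known. Fold changes with standard errors and adjusted p-values were given for the 10 members with the smallest p, the 3 most abundant and the most abundant of each role, and up to 3 genes with the smallest p were eligible from each other list. Alternatives were other scalings, filters and pseudocounts, a flow cell term, a replicate block, GC and length correction, summed read-through entries and each library left out.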

Additional observations from a re-analysis of the deposited data

How the results depend on the processing

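The count of 0 members past the threshold, and 0 in the other pathway lists, held under all 16 alternatives. The number of all genes past it was 7 and moved to 13 with quantile normalization, 2 with no filter, 3 with the replicate block, 4 with a flow cell term and 83 after GC and length correction. That correction with a replicate block, added after the data were seen, gave 1. Leaving out a library gave from 4 (without WT 2) to 19 (without WT 1). Same-numbered libraries were not treated as paired in the main fit. Their deviations from the group means correlated at −0.14, 0.18 and −0.16, which cannot settle whether they share an origin. Members at an unadjusted p under 0.05 ran from 1 (without WT 2 or K29Q 3) to 7 (without WT 1, 23.3% against 20.7% of all genes). With a library left out, members whose groups did not overlap ran from 6 to 14 (11 without K29Q 2, 14 without WT 1). For any gene, 2 libraries separate from 3 more readily than 3 from 3. Members without overlap numbered 4 under quantile normalization, and 4 once GC content and length were corrected for. The shares of all genes without overlap were not computed for these alternatives, so no conclusion about the list is drawn from these counts. The median of the members in flow cells A and B alone was −0.062 and 0.014. Of 15 members with a fold change given in full, 5 with values near 0 changed sign. FBL became 0.0043 after GC and length correction, 0.0047 with that correction and a flow cell term together (also chosen after the data were seen) and 0.0043 with that correction and the replicate block together. NCL became 0.054 with quantile normalization, and ran from −0.037 to 0.025 with a library left out. NPM1 became −0.0034 after GC and length correction and −0.0034 with that correction and the block together, and ran from −0.059 to 0.113. RRN3 became −0.035 after that correction, −0.049 with it and a flow cell term together and −0.035 with it and the block together, and ran from −0.023 to 0.110. The block alone cannot turn a sign, because each replicate number holds 1 WT and 1 K29Q library. For the same reason, adding the block to the correction repeats the corrected fold changes. TSR1 became −0.0014 with a flow cell term alone, and ran from −0.029 to 0.051. Depth is known only as an estimate, so counting error per gene was not computed.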
